A study of Mus musculus with 6 samples.

Results

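Chemokines and their receptors were followed in mice whose fat carried the aP2-nSREBP1c transgene, beside litter-matched wild type mice. All were males of 10 weeks, and the tissue was the epididymal white fat pad. The genes were taken by symbol: every probe set paired with exactly 1 gene in the platform annotation, where that gene is a numbered Ccl, Cxcl, Ccr or Cxcr gene, Cx3cl1, Cx3cr1, Xcl1, Xcr1 or an atypical receptor (Ackr1 to Ackr4). This gave 52 of the 18194 genes of the table, on 84 of its 45101 probe sets. They comprise 32 ligands, 16 receptors and 4 atypical receptors. Another 2 symbols that the rule leaves out are not analysed here. The 3 transgenic and 3 wild type mice share the background given as C57BL6;SJL, and each mouse was measured on its own Affymetrix MOE430v2.0 array. The strain entries spell the transgene as aP2-nSrebp1c, aP2-nSrebp1 and aP2-SREBP1c for transgenic replicates 1, 2 and 3, while all 3 titles (MUT) carry the name aP2-nSREBP1c. SREBP1c is a transcription factor of fatty acid synthesis, and the labels call these mice lipodystrophic. The aP2 (Fabp4) promoter is active mainly in fat cells and is also known to be active in macrophages. The RNA came from the whole pad, which mixes all these cells.

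Chemokines are small secreted proteins that bind G protein-coupled receptors on leukocytes and steer them into tissue. They are named by the spacing of conserved cysteines: adjacent in the CC family, separated by another residue in the CXC family. Atypical receptors bind chemokines without the usual G protein signal and mainly take them up or carry them, which shapes local gradients. In fat, macrophages, vessel cells and stromal cells make most chemokines, and the receptors mark the incoming cell types.

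Promoter sequence is shown for the 2 ligand genes whose change passed the test most clearly, and for the relatives of the CXC gene that carry the same element. Of the 52 genes, 40 matched an entry of the RefSeq promoter windows (GRCm38.p6, the 250 bases before a start site). The NF-kB consensus, the site of a main inducer of inflammatory genes, was searched on both strands and is printed in capitals. It lay in 11 of 44 windows of these genes (25.0%) and in 7.25% of all 32817 windows. Cxcl2, its neighbour Cxcl1 and the related gene Cxcl3, all on the plus strand of chromosome 5, each hold the same 11 capital bases, read as overlapping matches on both strands:
Cxcl2 (chr5:90903772-90903842): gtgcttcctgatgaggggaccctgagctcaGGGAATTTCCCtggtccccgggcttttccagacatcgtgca
Cxcl1 (chr5:90891144-90891214): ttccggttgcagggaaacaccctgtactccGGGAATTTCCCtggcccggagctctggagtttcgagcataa
Cxcl3 (chr5:90785998-90786068): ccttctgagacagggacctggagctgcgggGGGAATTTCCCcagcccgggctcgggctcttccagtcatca
Cxcl15 lies between Cxcl3 and Cxcl1 in RefSeq's order, and its window holds no match (0). The window of Ccl8 also holds no match to this consensus, and is all in lower case:
Ccl8 (chr11:82114935-82115184, plus strand): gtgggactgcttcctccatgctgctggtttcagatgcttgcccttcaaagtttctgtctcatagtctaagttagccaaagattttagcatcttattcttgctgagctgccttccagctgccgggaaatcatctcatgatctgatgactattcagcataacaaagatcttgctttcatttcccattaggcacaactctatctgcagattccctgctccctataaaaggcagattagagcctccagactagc
The AP-1 letters TGANTCA lay in 5 of the 44 windows (11.4%, against 6.75% of all windows). The sterol element letters TCACNCCAC lay in 0 of the 44, against 1.05% of all windows. The TATA letters TATAAA lay in 14 (31.8%, against 12.4%), that of Ccl8 among them. A match describes letters only, and its absence from a window says nothing about a factor.

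The array of transgenic replicate 2 stands apart. Its beta-actin control was 122 times as bright at the 3′ as at the 5′ probe set, against 1.11 to 1.81 on the other 5 arrays, and its median signal was 37.7 against 53.4 to 65.4. Degraded RNA is known to raise such ratios. This array gave the lowest of the 6 signals for 15 of 50 tested chemokine and receptor probe sets and for 44.6% of all tested probe sets, so values without it are given where they move a result by over 1.5 times or change a call. The Pcx control split the arrays otherwise: its ratio was 3.06 and 3.10 in wild type replicate 3 and transgenic replicate 1 and 14.1 to 52.0 in the rest. Of the adipocyte markers checked, 6 were on the table with 1 gene. Their summed signal was 53220 to 58970 in wild type and 28730 to 37180 in transgenic fat. By the test described next Lep and Adipoq were lower and 4 were not called. Leaving transgenic replicate 2 out, 4 of the 6 were lower. The adiponectin gene Adipoq had at least 4626.2 on every array.

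Changes are differences of log2(signal + 16), transgenic minus wild type, a scale that understates the change of dim genes. They were tested with limma, with p-values adjusted over all 27023 tested probe sets by the Benjamini-Hochberg method and a threshold of 0.05. A probe set was tested unless it was among the dimmest 40%, which kept 50 of the 84, from 35 of the 52 genes. Each gene was counted once, through the brightest of its tested probe sets. Of these 35 genes, Ccl8 and Cxcl2 rose and none (0) fell. At an unadjusted limma p under 0.05, 12 were higher and 4 lower, against 1238 and 1174 of all 13112 tested genes. Among all 13112 tested genes 2.23% rose and 1.54% fell. The family's count rests on 2 genes, and its share was not tested against these. By probe set 3 of 50 rose and 0 fell, against 1.67% and 1.3% of all tested probe sets. The median log2 change was 0.31 over the 35 genes and -0.04 over all tested genes.

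More of the family passed when transgenic replicate 2 was left out. Then 7 of the 35 genes rose, against 8.04% of all genes, and 3 fell, against 7.33%. By probe set these were 10 and 4 of 50, against 6.96% and 6.23%. The genes that rose were Ccl8, Cxcl2, Cxcl13, Cxcl16, Ccl4, Cxcl12 and Ackr4, and those that fell were Ackr3, Ackr2 and Ccl17. Cxcl12 was counted through 1448823_at, while its other bright probe set, 1417574_at, fell in the same fit (-0.74, adjusted p = 0.0309). Without the filter on dim probe sets that fit no longer called Ccl4 (adjusted p = 0.0768), Ackr4 (0.0876), Ackr2 (0.0611), Ccl17 (0.132) or the brighter probe set of Cxcl13 (0.103). It also lost the fall of Cxcl12 1417574_at (0.0526) and the rise of Cxcl16 1449195_s_at (0.08). A p that misses the threshold does not show that the groups are alike. Their median change was then 0.44 over the 35 genes and 0.02 over all. Over all 6 arrays, the groups did not overlap on 18 tested probe sets that were higher and 7 that were lower in transgenic fat, against 11.9% and 15.3% of all tested probe sets.

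**Figure D1:**
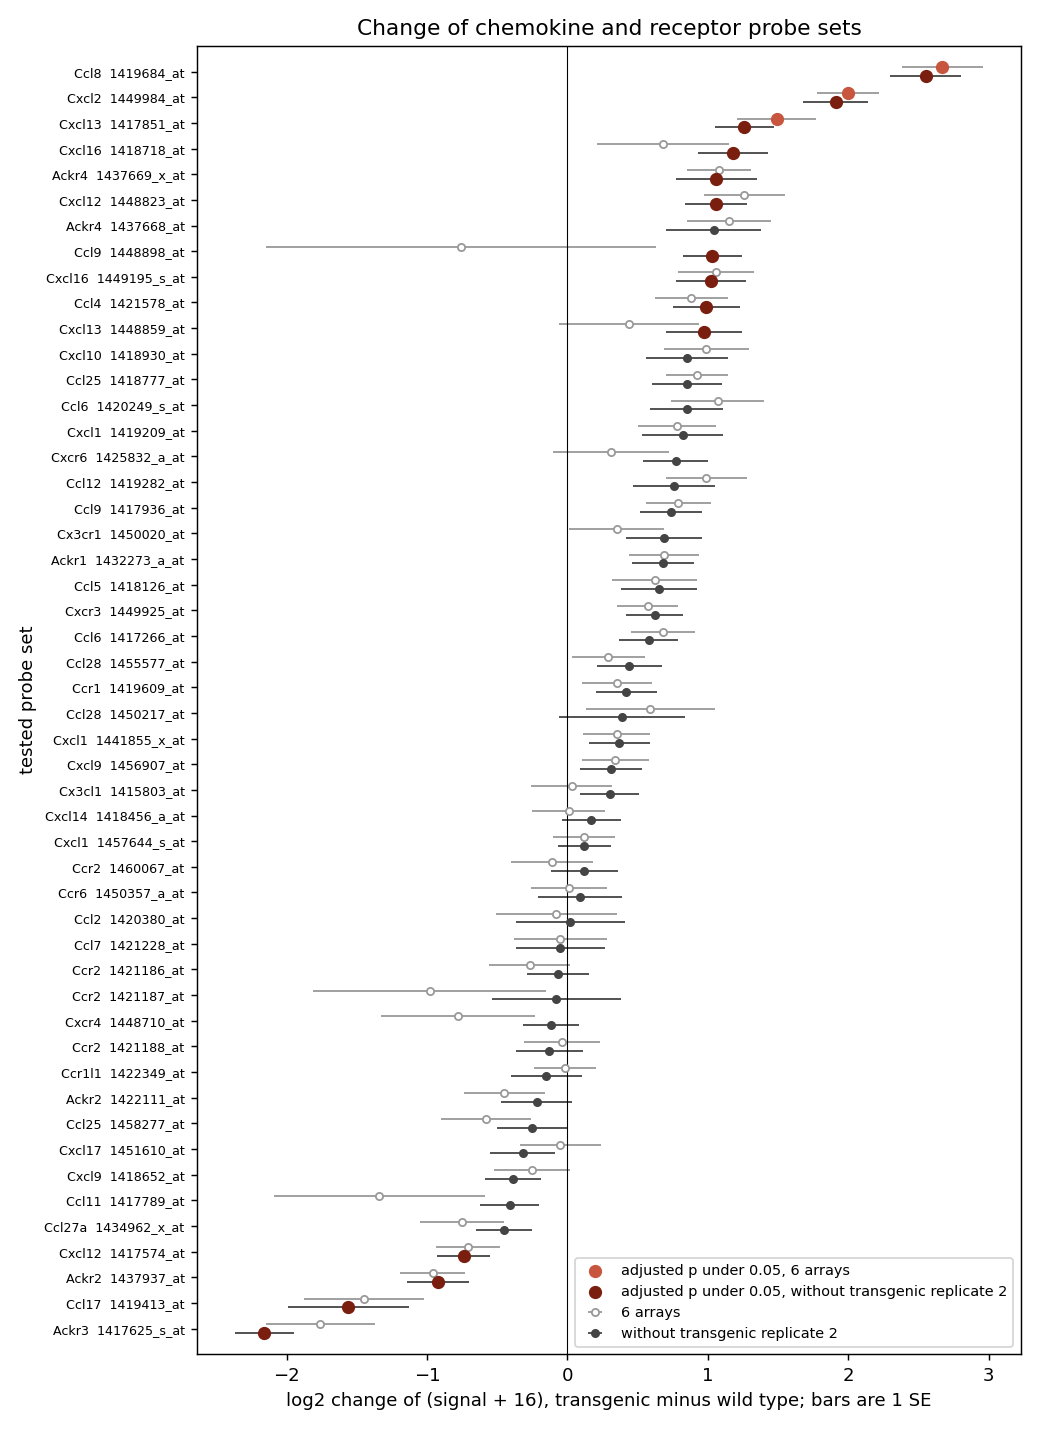
Log2 change of (signal + 16), transgenic minus wild type, of each of the 50 tested probe sets; points are estimates, bars 1 SE, open grey for 6 arrays (3 per group) and dark for the fit without transgenic replicate 2, with larger red points where the adjusted p is under 0.05. Ccl8, Cxcl2 and a probe set of Cxcl13 are called in both fits, and the estimates of Ccl9 1448898_at lie at -0.76 and 1.03.

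The plot of changes orders the probe sets by the fit without that array. Ccl8, Cxcl2 and Cxcl13 lead it at the top and Ackr3 closes it. The widest bar of the 6-array fit is that of Ccl9 1448898_at, which was dim on transgenic replicate 2 alone.

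The largest change among the 50 tested probe sets was that of Ccl8, a CC chemokine that attracts monocytes and, in mice, acts through Ccr8. Its signals were 606.7, 422.0 and 375.8 in wild type and 2278.8, 3571.9 and 3346.9 in transgenic fat. Every transgenic mouse thus lay far above every wild type mouse, and the group means were 468.2 ± 122 and 3066 ± 691 (SD, n = 3). The change of 2.67 ± 0.29 (SE) passed the test (adjusted p = 0.00618), and was 2.55 without transgenic replicate 2 (adjusted p = 0.000192). It was 2.55 and 2.73 within the low and the high class of the Pcx ratio. The low class sets transgenic replicate 1 against wild type replicate 3 alone, without a spread, and the high class includes transgenic replicate 2. The adjusted p was 0.0619 without wild type replicate 2. The signal of Ccr8 was 2.2 to 3.6 in wild type and 1.3 to 2.5 in transgenic fat, close to background on all 6 arrays, and the gene was not tested.

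The neighbours of Ccl8 did not pass the test. In RefSeq's order on chromosome 11 the genes Ccl2, Ccl7, Ccl11, Ccl12, Ccl8 and Ccl1 follow each other. Ccl2, the main monocyte attractant of inflamed fat, had signals of 418.7, 216.1 and 153.2 in wild type and 175.1, 196.4 and 340.2 in transgenic fat. The groups overlapped fully, with a change of -0.08 ± 0.43 (SE, adjusted p = 0.938) that was 0.02 (adjusted p = 0.982) without transgenic replicate 2. Ccl7, which shares the receptor Ccr2, had -0.05 ± 0.33 (adjusted p = 0.95). Ccl12, another Ccr2 ligand, was dim at 17.5 to 30.5 in wild type and 44.3 to 93.1 in transgenic fat, without overlap (0.99 ± 0.29, adjusted p = 0.149). Ccl11, or eotaxin, which attracts eosinophils through Ccr3, had 700.2, 661.2 and 722.2 in wild type and 420.9, 62.4 and 634.9 in transgenic fat. All 3 transgenic values were lower, that of replicate 2 by far, and the change was -1.34 ± 0.75 (adjusted p = 0.433) and -0.41 (adjusted p = 0.25) without replicate 2. Ccl1, a ligand of Ccr8 known from T cells, was at 5.2 to 28.7 and not tested.

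Cxcl2, a CXC chemokine that attracts neutrophils, rose from a dim level. Its signals were 36.2, 38.2 and 31.4 in wild type and 157.2, 213.7 and 198.6 in transgenic fat. The groups lay wide apart, at 35.27 ± 3.49 and 189.8 ± 29.3 (SD, n = 3). The change was 2.0 ± 0.22 (SE, adjusted p = 0.00643) and 1.91 without transgenic replicate 2 (adjusted p = 0.000644), and 1.87 and 2.06 within the low and high class of the Pcx ratio. The adjusted p was 0.0599, 0.0632 and 0.057 without wild type replicates 1, 2 and 3. It was 0.0172 with all arrays and no filter on dim probe sets.

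The relatives of Cxcl2 were not called. Cxcl1, the neighbouring neutrophil attractant with the same NF-kB match, has 3 tested probe sets, with changes of 0.12 ± 0.22, 0.35 ± 0.24 and 0.78 ± 0.28 (SE), none (0) of which passed the test (adjusted p = 0.805, 0.519 and 0.231). Its brightest probe set had 188.3 to 204.1 in wild type and 193.3 to 236.0 in transgenic fat, so that the groups overlapped. Cxcl3 and Cxcl5, of the same neutrophil-attracting kind, were at 1.1 to 22.7 and 2.0 to 35.9 over the 6 arrays and were not tested. Neutrophil markers were counted beside Cxcl2. Of 6 tested markers Camp, an antimicrobial peptide of neutrophil granules, rose (2.96 ± 0.22 SE, adjusted p = 0.00225) and 5 did not pass the test. Leaving transgenic replicate 2 out, 2 of the 6, Camp and S100a9, rose and 0 fell. The summed signal of the 7 markers on the table was 275.7 to 352.5 in wild type and 617.3 to 899.4 in transgenic fat. S100a8, S100a9 and Camp were higher in transgenic fat without overlap, while Mpo, Elane, Ngp and Ltf overlapped between the groups. Camp was at 1.9 to 7.8 in wild type and 130.8 to 165.6 in transgenic fat, and so was tested only because of its transgenic signals. The same holds for S100a9, at 13.9 to 29.1 in wild type and 79.8 to 230.6 in transgenic fat. None of the 7 had a mean signal under 16, and their part in the change of Cxcl2 was not tested.

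Cxcl13 draws B cells through Cxcr5, and its 2 probe sets differed. On 1417851_at the signals were 69.7, 91.0 and 85.2 in wild type and 233.1, 360.7 and 204.0 in transgenic fat. These did not overlap, and the change of 1.49 ± 0.28 (SE) passed the test (adjusted p = 0.0418). On the brighter probe set, 1448859_at, the signals were 116.3, 182.5 and 229.0 in wild type and 371.9, 104.8 and 324.0 in transgenic fat. Here transgenic replicate 2 was the lowest of all 6, and the change was 0.44 ± 0.50 (adjusted p = 0.685). Leaving that array out gave 1.26 and 0.97 for the probe sets (adjusted p = 0.0039 and 0.0436). The call of 1417851_at is near the threshold: the adjusted p was 0.0808 to 0.223 without any other single array, 0.06 after quantile normalization and 0.0671 without the filter. Cxcr5 was at 15.6 to 19.9 in wild type and 23.6 to 56.0 in transgenic fat, and was not tested. Of 4 tested B and plasma cell markers Jchain rose (2.57 ± 0.49 SE, adjusted p = 0.0448) and 3 did not pass the test. The summed signal of these 4 was 439.6 to 668.4 in wild type and 1267 to 3816 in transgenic fat, with no mean signal under 16. Most of it came from Jchain, at 235.1 to 464.4 in wild type and 1043.8 to 3633.2 in transgenic fat. Ms4a1, Cd79a and Cd79b overlapped between the groups. The part of these markers in the change of Cxcl13 was not tested.

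**Figure D2:**
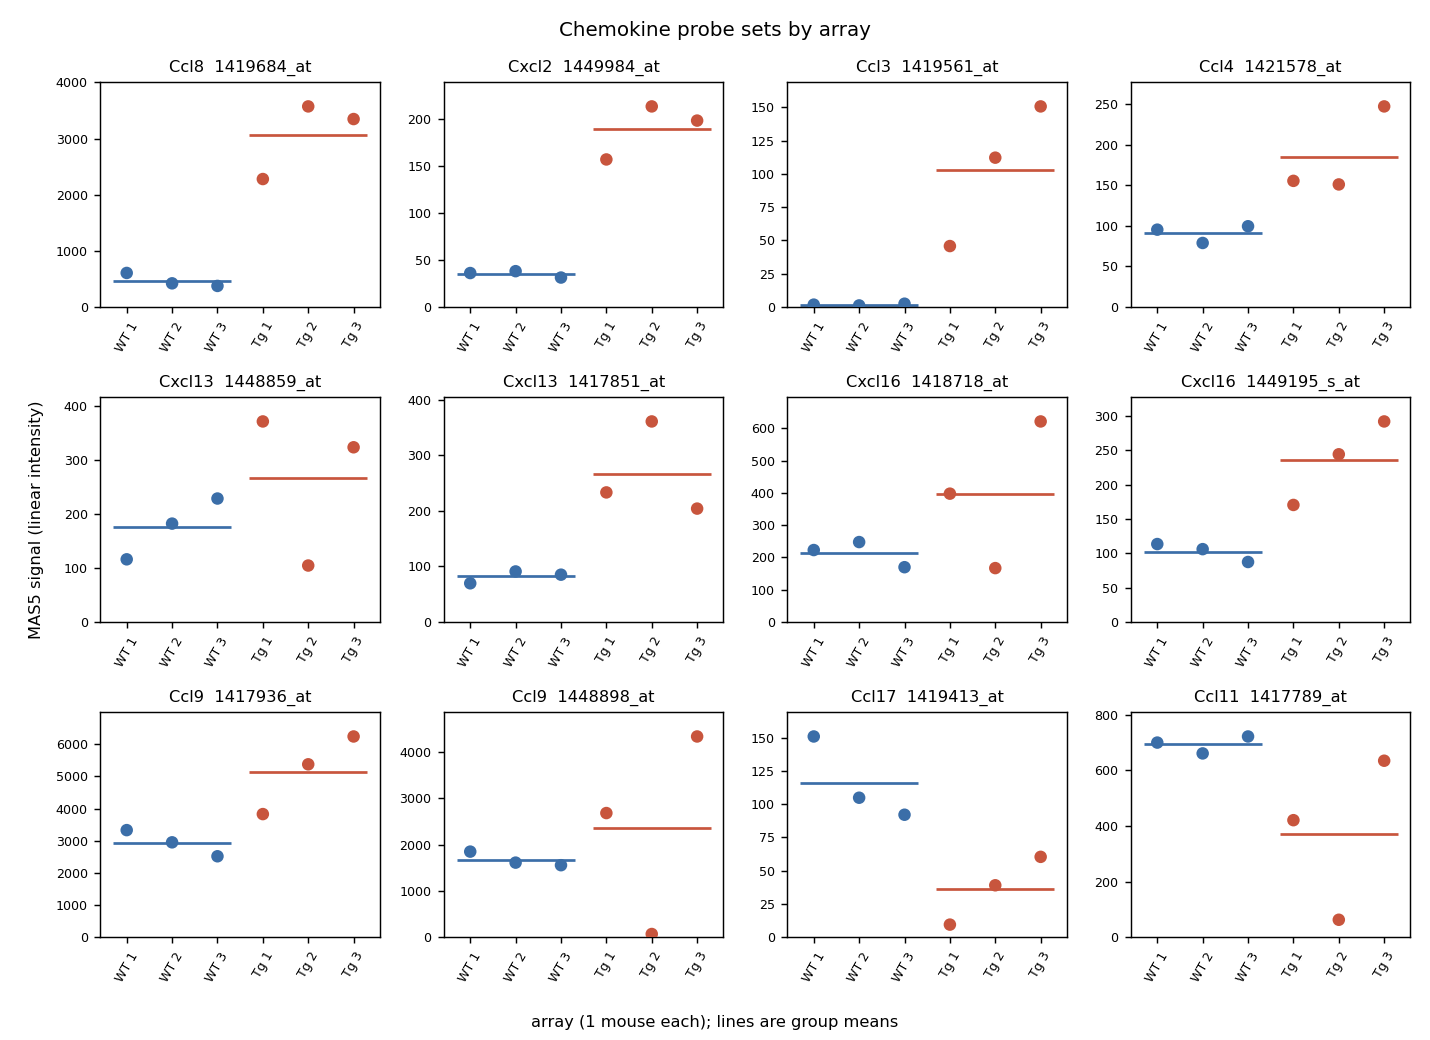
MAS5 signal (linear intensity, axes from 0) of 12 ligand probe sets on each array, blue for the 3 wild type and red for the 3 transgenic mice, with lines at the group means. Ccl8 and Cxcl2 separate the groups on all arrays, while transgenic replicate 2 falls to 66.8 on Ccl9 1448898_at and to 62.4 on Ccl11.

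Ccl3, a ligand of Ccr1 known as a macrophage inflammatory protein, was left out by the filter because its wild type signal was near 0. It read 1.8, 1.2 and 2.5 in wild type and 45.8, 112.2 and 150.7 in transgenic fat. All 3 transgenic mice were thus above all wild type mice, as the plot of ligand signals by array shows. With no filter on dim probe sets the change was 2.62 ± 0.38 (SE) and passed the limma test over all 45037 probe sets (adjusted p = 0.028). Its size depends on the offset, being 1.29 with an offset of 64. In that unfiltered fit the adjusted p was 0.153, 0.161 and 0.147 without wild type replicates 1, 2 and 3, and 0.0164, 0.0165 and 0.0811 without transgenic replicates 1, 2 and 3. The neighbouring gene Ccl4, its close relative, had 95.3, 78.9 and 99.5 in wild type and 155.4, 151.0 and 247.1 in transgenic fat. Its groups did not overlap either, and the change was 0.88 ± 0.26 (adjusted p = 0.162) with 6 arrays and 0.99 without transgenic replicate 2, where it passed (adjusted p = 0.026).

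Ccl6 and Ccl9, which bind Ccr1 and are made by resting as well as stimulated macrophages, had high signals in both groups. The brighter probe set of Ccl6 read 4449.2, 4067.2 and 3004.8 in wild type and 4681.0, 6964.7 and 6864.8 in transgenic fat. The groups were next to each other without overlap (0.68 ± 0.23 SE, adjusted p = 0.213), and the dimmer probe set had 1.07 ± 0.33 (adjusted p = 0.166). The brighter probe set of Ccl9 read 3329.9, 2950.0 and 2516.0 in wild type and 3829.0, 5378.6 and 6245.0 in transgenic fat (0.79 ± 0.23 SE, adjusted p = 0.149). The other probe set of Ccl9, 1448898_at, read 1847.6, 1609.7 and 1554.2 in wild type and 2681.0, 66.8 and 4336.2 in transgenic fat. Its low value on transgenic replicate 2 set the sign: the change was -0.76 ± 1.39 (adjusted p = 0.806) with that array and 1.03 (adjusted p = 0.0119) without it. Ccl5, a ligand of Ccr1 that is known from T cells, had 248.0, 280.1 and 162.4 in wild type and 293.9, 337.0 and 447.5 in transgenic fat. All 3 transgenic values were higher, and the change was 0.62 ± 0.30 (adjusted p = 0.369).

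Macrophage markers were counted beside these CC chemokines. Of 8 tested markers Fcgr1, a receptor for antibody, rose (1.64 ± 0.30 SE, adjusted p = 0.0396) and 7 were not called. On the 5 arrays other than transgenic replicate 2, 4 of the 8 rose and 0 fell. Their summed signal was 13230 to 15410 in wild type and 20030 to 27220 in transgenic fat, with no mean signal under 16. In RNA from whole pads more cells of a type and more RNA per cell cannot be told apart, and the part of these markers in the changes of Ccl8, Ccl3, Ccl4, Ccl6 and Ccl9 was not tested.

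Cxcl16, which exists as a membrane-bound and a shed form and binds Cxcr6 on T cells, has 2 tested probe sets. On 1449195_s_at it read 113.5, 106.1 and 87.4 in wild type and 170.4, 244.1 and 291.9 in transgenic fat. These groups did not overlap (1.06 ± 0.27 SE, adjusted p = 0.105). On 1418718_at it read 222.9, 247.6 and 169.8 in wild type and 397.4, 167.0 and 620.9 in transgenic fat, with transgenic replicate 2 again the lowest (0.68 ± 0.47, adjusted p = 0.517). With that array left out both passed the test, at 1.02 and 1.18 (adjusted p = 0.0282 and 0.0132). Cxcr6 read 77.2, 61.9 and 58.6 in wild type and 106.4, 37.8 and 140.8 in transgenic fat, lowest on transgenic replicate 2. Its change was 0.31 ± 0.41 (adjusted p = 0.728). Leaving this array out gave 0.77 (adjusted p = 0.0622). The other probe set of Cxcr6, 1422812_at, was dim and not tested. There the signals were 27.7, 5.4 and 9.9 in wild type and 28.5, 42.4 and 39.2 in transgenic fat, without overlap.

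The ligands of Cxcr3, which interferon gamma is known to induce, were not called. Cxcl10 read 85.6, 74.8 and 40.5 in wild type and 141.6, 179.1 and 117.5 in transgenic fat. It was higher in all 3 transgenic mice without passing the test (0.99 ± 0.30 SE, adjusted p = 0.165). Cxcl9 read 765.8, 711.7 and 654.9 in wild type and 446.3, 733.3 and 645.4 in transgenic fat on its brighter probe set. Its groups overlapped (-0.25 ± 0.27, adjusted p = 0.669; -0.39, adjusted p = 0.267, without transgenic replicate 2), and the dimmer probe set had 0.34 ± 0.24 (adjusted p = 0.522). Cxcl11 was dim and not tested. It read 8.8, 7.5 and 7.0 in wild type and 20.4, 9.1 and 27.0 in transgenic fat on 1419697_at, without overlap, and its other probe set overlapped at 1.3 to 17.1. Cxcr3 itself, the receptor on activated T cells, read 123.4, 103.6 and 98.9 in wild type and 183.9, 153.5 and 167.3 in transgenic fat. These did not overlap, with a change of 0.57 ± 0.22 (adjusted p = 0.261). Of 6 tested T and NK cell markers 0 passed limma's test in either direction with 6 arrays (1 was higher at an unadjusted p under 0.05). In the fit without transgenic replicate 2, 1 rose and 0 fell. The summed signal of the 8 on the table was 416.6 to 531.6 in wild type and 529.0 to 747.9 in transgenic fat. Cd4 and Cd3d were too dim to be tested.

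Ccl17 was among the few ligands that were lower. It is made by dendritic cells and macrophages under type 2 signals and attracts T cells through Ccr4. Its signals were 151.0, 104.9 and 92.1 in wild type and 9.4, 39.0 and 60.4 in transgenic fat. Every transgenic value was below every wild type value. The change was -1.45 ± 0.43 (SE, adjusted p = 0.155) with 6 arrays, and it fell by 1.56 without transgenic replicate 2 (adjusted p = 0.0412). Its partner in binding Ccr4, Ccl22, read 39.9, 40.6 and 20.6 in wild type and 35.9, 3.0 and 86.6 in transgenic fat, and was not tested. Ccr4 lay at 6.1 to 28.9 on all arrays. Of 4 tested dendritic cell markers 0 passed limma's test in either direction with 6 arrays (1 was lower at an unadjusted p under 0.05). In the fit without transgenic replicate 2, 1 rose and 0 fell. The summed signal of these markers was 752.9 to 1077 in wild type and 717.0 to 1454 in transgenic fat.

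Other ligands did not pass the test in either fit. The skin chemokine Ccl27a read 134.5 to 157.0 in wild type and 46.6 to 106.6 in transgenic fat (-0.75 ± 0.30 SE, adjusted p = 0.289; -0.45, adjusted p = 0.191, without transgenic replicate 2). Ccl25, the ligand of Ccr9 known from thymus and gut, had probe sets of opposite sign, 0.92 ± 0.22 and -0.58 ± 0.32 (adjusted p = 0.087 and 0.43); the latter was -0.25 (adjusted p = 0.586) without that array. Cx3cl1, or fractalkine, a membrane-anchored chemokine of vessel cells, had 0.03 ± 0.29 (adjusted p = 0.966), and 0.30 (adjusted p = 0.4) without it. Cxcl14 had 0.01 ± 0.26 (adjusted p = 0.99), Cxcl17 -0.05 ± 0.29 (adjusted p = 0.939) and the mucosal chemokine Ccl28 0.29 ± 0.26 (adjusted p = 0.607). These were 0.17, -0.32 and 0.44 on the 5 other arrays (adjusted p = 0.678, 0.449 and 0.273). The brightest probe sets of Ccl20, Cxcl15 and Xcl1 did not exceed 47.6 on any array.

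Cxcl12, the stromal chemokine that holds leukocytes and progenitors in tissue, gave opposite values on its 2 bright probe sets. On 1417574_at it read 1106.8, 1104.9 and 993.2 in wild type and 539.7, 682.9 and 736.4 in transgenic fat. Here all transgenic mice were lower (-0.71 ± 0.23 SE, adjusted p = 0.186). On 1448823_at it read 1025.3, 862.4 and 770.8 in wild type and 1507.2, 2804.0 and 2265.1 in transgenic fat. Here all transgenic mice were higher (1.26 ± 0.29, adjusted p = 0.0762). Without transgenic replicate 2 both passed the test, the first at -0.74 (adjusted p = 0.0309) and the other at 1.06 (adjusted p = 0.0114).

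The opposite signs did not come from that array alone. The log2 of 1448823_at over 1417574_at, each with the offset of 16, was -0.11, -0.35 and -0.36 in wild type and 1.45, 2.01 and 1.60 in transgenic fat. The groups differed by 1.96, with an exact two-sided permutation p of 0.1, the smallest that 3 against 3 arrays allow; this ratio was chosen after the values were seen. It describes the opposite signs above and adds no test of them. The files do not say which transcripts each probe set reads. Another probe set, 1439084_at, read 8.0 to 125.7 in wild type and 9.4 to 36 in transgenic fat and was not tested.

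Of the receptors of Cxcl12, the atypical receptor Ackr3 was lower and Cxcr4 was not called. Ackr3, which takes up Cxcl12 and Cxcl11, read 1497.8, 1467.2 and 1111.0 in wild type and 249.0, 681.2 and 334.6 in transgenic fat. No value overlapped, and the means were 1359 ± 215 and 421.6 ± 229 (SD, n = 3). The change of -1.76 ± 0.39 (SE) did not pass the test with 6 arrays (adjusted p = 0.071). It fell by 2.16 without transgenic replicate 2 (adjusted p = 0.000197), and was -2.09 and -1.60 within the low and high class of the Pcx ratio. Cxcr4, the signalling receptor, read 319.0, 266.1 and 309.0 in wild type and 245.3, 57.1 and 300.6 in transgenic fat. Only transgenic replicate 2 was far below the rest (-0.78 ± 0.55, adjusted p = 0.524; -0.12, adjusted p = 0.75, without it). Among 6 endothelial markers 0 passed limma's test with 6 arrays (1 was lower at an unadjusted p under 0.05) and 3 fell without transgenic replicate 2, and their summed signal was 5907 to 6456 in wild type and 1164 to 4802 in transgenic fat. Of 5 mesothelial markers 2 fell, Msln (-2.72 ± 0.50 SE, adjusted p = 0.0392) and Krt19 (-1.86 ± 0.33, adjusted p = 0.0348), with sums of 4324 to 5034 and 519.8 to 1721. Leaving transgenic replicate 2 out, 4 of the 5 mesothelial markers fell. The part of either cell type in the values of Cxcl12 and Ackr3 was not tested.

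**Figure D3:**
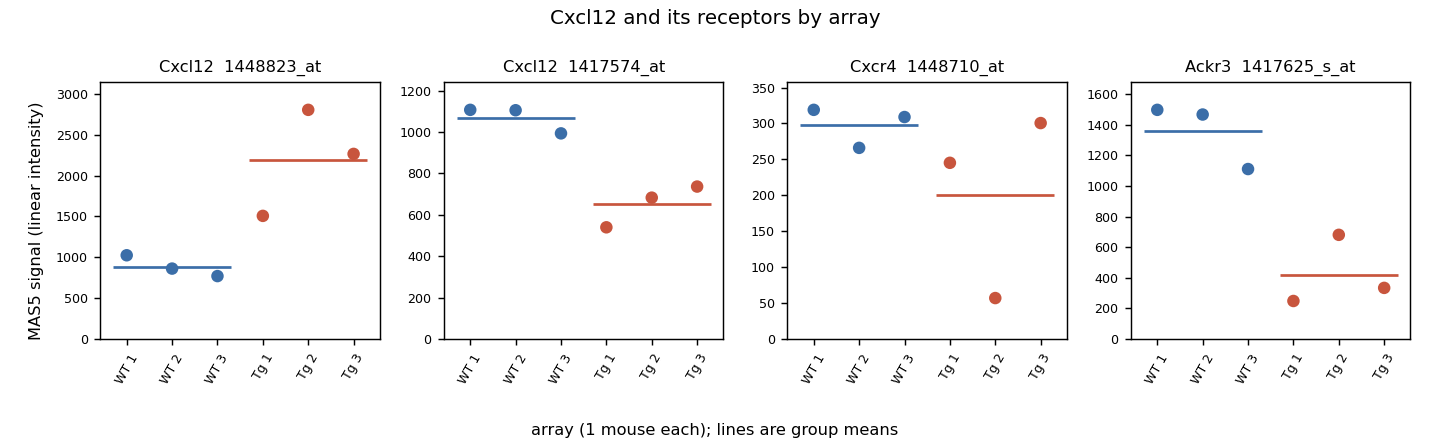
MAS5 signal (linear intensity, axes from 0) by array for the 2 bright probe sets of Cxcl12, for Cxcr4 and for Ackr3, blue for 3 wild type and red for 3 transgenic mice, lines at group means. Means go from 1068 to 653 on Cxcl12 1417574_at and from 886.2 to 2192 on 1448823_at, and from 1359 to 421.6 for Ackr3.

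The plot of Cxcl12 and its receptors sets these values side by side. The groups are separate in the panels of Cxcl12 and Ackr3 and not in that of Cxcr4.

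The other atypical receptors went both ways. Ackr2, which scavenges inflammatory CC chemokines, read 187.9, 169.9 and 183.0 in wild type and 72.0, 79.7 and 105.5 in transgenic fat on its brightest probe set. These groups were well apart (-0.96 ± 0.23 SE, adjusted p = 0.0859), and the gene fell by 0.92 without transgenic replicate 2 (adjusted p = 0.0219). Its other tested probe set had -0.45 ± 0.29 (adjusted p = 0.492). Leaving the same array out gave -0.22 (adjusted p = 0.639). Ackr4, which takes up homeostatic chemokines such as Ccl25, read 29.7, 15.8 and 18.2 in wild type and 63.3, 64.2 and 58.2 in transgenic fat. All values were low, without overlap (1.08 ± 0.23, adjusted p = 0.0597), and the gene rose by 1.06 without transgenic replicate 2 (adjusted p = 0.0405), but was not called there without the filter (adjusted p = 0.0876). Its wild type signals are as dim as those of probe sets that were not tested. A second tested probe set had 1.15 ± 0.30 (adjusted p = 0.112), and another, not tested, read 6.1 to 74.9 in wild type and 5.8 to 22.2 in transgenic fat. Ackr1, which carries chemokines across venule walls, read 312.8, 224.9 and 223.4 in wild type and 368.2, 423.1 and 459.9 in transgenic fat. It was higher in all 3 transgenic mice without passing the test (0.69 ± 0.25, adjusted p = 0.239).

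**Figure D4:**
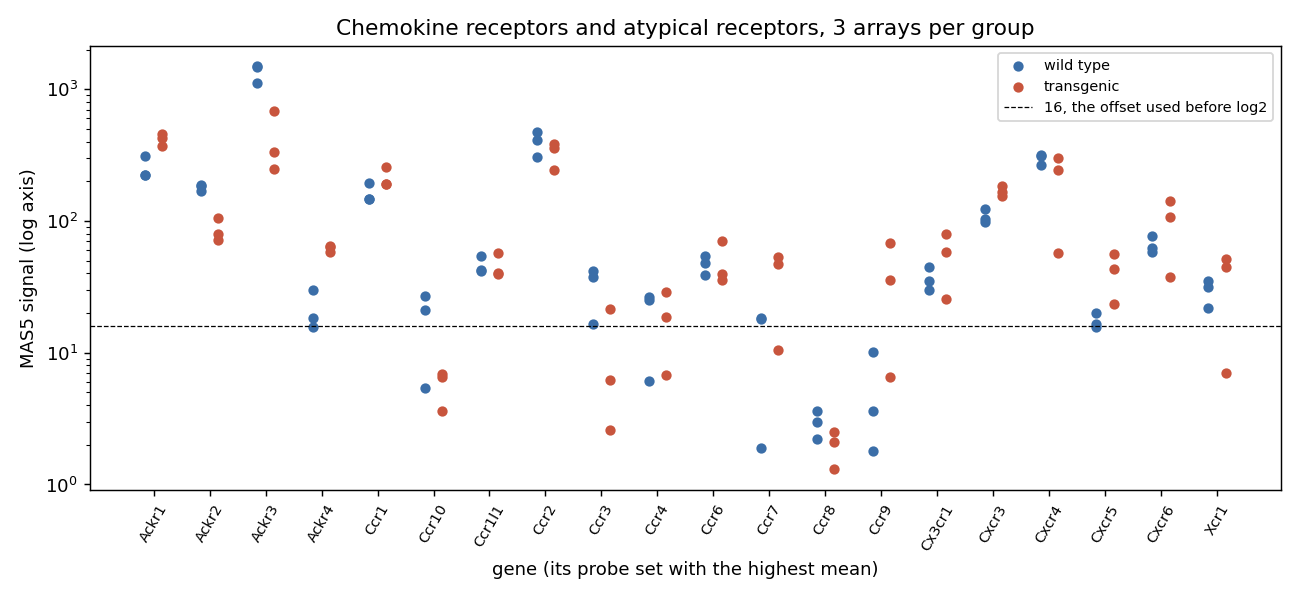
MAS5 signal on a log axis of the probe set with the highest mean for each of 16 receptors and 4 atypical receptors, blue for wild type and red for transgenic arrays (3 each), with a dashed line at 16, the offset used before log2. Ccr8 lies at 1.3 to 3.6 on all arrays, and the groups of Ackr3 are separate, with wild type at 1111.0 or more and transgenic at 681.2 or less.

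Among the 16 signalling receptors 8 were tested, and 0 passed limma's test with 6 arrays or without transgenic replicate 2 (1 was higher and 0 lower at an unadjusted p under 0.05 with 6 arrays, 3 and 0 without that array). The plot of receptor signals shows their groups mostly overlapping. Ccr2, the receptor of inflammatory monocytes, read 477.0, 307.6 and 410.0 in wild type and 384.0, 243.8 and 360.8 in transgenic fat on its brightest probe set. Those ranges overlap (-0.27 ± 0.29 SE, adjusted p = 0.675), and the other 3 tested probe sets of Ccr2 had changes of -0.98, -0.11 and -0.04. Without transgenic replicate 2 the brightest had -0.07 (adjusted p = 0.879) and the others -0.08, 0.12 and -0.13. Ccr1, a receptor of Ccl3, Ccl5, Ccl6 and Ccl9, read 194.0, 147.8 and 146.3 in wild type and 189.7, 190.4 and 257.9 in transgenic fat (0.35 ± 0.25, adjusted p = 0.523). Cx3cr1, the fractalkine receptor of patrolling monocytes, had 0.35 ± 0.34 (adjusted p = 0.637), Ccr6 0.01 ± 0.27 (adjusted p = 0.992) and Ccr1l1 -0.02 ± 0.22 (adjusted p = 0.971). On the 5 other arrays these were 0.69, 0.09 and -0.15 (adjusted p = 0.135, 0.884 and 0.769). The 8 untested receptors, Ccr3, Ccr4, Ccr7, Ccr8, Ccr9, Ccr10, Cxcr5 and Xcr1, read 1.3 to 68.3 on their brightest probe sets. Ccr3, the eosinophil receptor, read 37.3, 41.8 and 16.4 in wild type and 21.5, 2.6 and 6.2 in transgenic fat.

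Genes that act around chemokines were counted in the same fit. Of 46 tested genes of receptor signalling 2 rose and 2 fell, and 42 were not called (median change 0.11, against -0.04 over all genes). Rgs1, which shortens chemokine receptor signals in leukocytes, read 53.5, 52.0 and 43.9 in wild type and 287.5, 709.6 and 502.4 in transgenic fat. The groups were far apart, and it rose by 2.89 ± 0.35 (SE, adjusted p = 0.00938). Itgb2, the shared chain of the leukocyte integrins that chemokines activate, rose by 1.84 ± 0.29 (adjusted p = 0.0254). The G protein gene Gnai1 had -1.14 ± 0.22 (adjusted p = 0.0473) and Rgs5, a pericyte regulator of the same kind as Rgs1, -1.27 ± 0.23 (adjusted p = 0.0393). With transgenic replicate 2 left out 7 rose and 2 fell.

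Of 17 tested chemoattractants and receptors under other symbols 0 rose, 16 were not called, and Cmklr1, the chemerin receptor, fell (-2.15 ± 0.29 SE, adjusted p = 0.0131). It read 1202.8, 1090.3 and 1104.0 in wild type and 199.5, 202.3 and 347.9 in transgenic fat. The groups were far apart. Ltb4r1, the leukotriene B4 receptor of neutrophils, was left out by the filter like Ccl3, in the other direction. It read 61.2, 56.2 and 56.7 in wild type and 7.4, 2.1 and 5.7 in transgenic fat, and fell in the unfiltered fit (-1.82 ± 0.21 SE, adjusted p = 0.0113). The chemerin gene Rarres2 read 4345.7, 4398.1 and 4050.3 against 2604.4, 2306.2 and 3139.1 (-0.68 ± 0.18 SE, adjusted p = 0.115), and was called at -0.57 (adjusted p = 0.0314) without transgenic replicate 2. Pf4, a platelet and macrophage CXC chemokine, had 0.30 ± 0.29 (adjusted p = 0.635) with 6 arrays and 0.04 (adjusted p = 0.921) without transgenic replicate 2. Among 24 genes of chemokine cleavage and surface binding, Mmp12, a macrophage elastase that also cuts chemokines, rose by 2.86 ± 0.55 (adjusted p = 0.0473), Dpp4, the peptidase that inactivates Cxcl12, had -1.45 ± 0.27 (adjusted p = 0.0427), and 22 did not pass the test. With transgenic replicate 2 left out, 4 genes of the former list rose and 2, Cmklr1 and Rarres2, fell. Those that rose were Mif (1.52, adjusted p = 0.00067), C5ar1 (1.94, adjusted p = 0.00526), C3ar1 (1.29, adjusted p = 0.0111) and Gpr35 (0.97, adjusted p = 0.0352). The median change of the former list was 0.3 with 6 arrays. Of the latter list 5 rose and 5 fell without that array. Of 35 tested genes that induce chemokines, among them NF-kB subunits and cytokine receptors, 0 passed limma's test (6 were higher and 1 lower at an unadjusted p under 0.05), and 7 rose and 1 fell without that array. Without that array Rel, Tnfrsf1b, Il1rn, Irf1, Irf8, Tlr2 and Cebpb rose and Ifngr1 fell. Rel, an NF-kB subunit, read 7.1 to 22.1 in wild type and 54.4 to 96.1 in transgenic fat. Its change with 6 arrays was 1.48 ± 0.3 (adjusted p = 0.0545), and it was tested only because of its transgenic signals. With 6 arrays Tnf had 0.27 ± 0.44 (adjusted p = 0.778) and Il1b 0.57 ± 0.28 (adjusted p = 0.385).

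Of 6 tested mast cell markers 2 rose, the proteases Cpa3 (1.65 ± 0.22 SE, adjusted p = 0.0132) and Cma1 (1.60 ± 0.28 SE, adjusted p = 0.0337), with sums of 774.9 to 921.9 in wild type and 1677 to 2519 in transgenic fat. Leaving transgenic replicate 2 out, 5 of the 6 mast cell markers rose. Of 5 measured epididymis and testis markers only 1 was bright enough to be tested and 0 passed limma's test (1 was higher at an unadjusted p under 0.05), with sums of 68.2 to 113.1 and 106.0 to 156.3. Across the pathway and marker lists 16 genes were called with 6 arrays. With 1 array left out at a time, Camp and Lep kept the call in all 6 fits. The other 14 lost it without each wild type array, with a highest adjusted p between 0.0766 and 0.247, and all 16 were called without transgenic replicate 2.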

How the data were processed

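Total RNA of 6 mice was hybridised to 1 array each. Each deposited value is a linear signal intensity of 1 probe set; the submitters' processing notes name MAS5. Its version, scaling target and detection calls are not analysed here, so no bound was set for signals near background. Of 45101 probe sets, 34958 have 1 gene symbol, 932 several and 9211 none in the platform annotation; 4 with several symbols touch the family and were not used. All 84 probe sets of the family matched current symbols by gene identifier. There are 0 columns of other samples.

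Statistics were run in R 4.3.3 (limma 3.58.1); promoters and plots in Python 3.11.15 (matplotlib 3.10.9, pandas 2.3.3, numpy 2.4.6). Values of log2(signal + 16) were fitted with lmFit and eBayes (trend = TRUE) after leaving out 64 control probe sets and the 40% with the lowest mean, as a two-sided test on 4 residual degrees of freedom; all adjusted p are from this test unless another is named. The fit was tested on simulated data. The number of arrays limits the precision. Each array is a separate animal; the controls are litter-matched, but nothing ties equal replicate numbers to 1 litter. The family, the lists and the alternatives were chosen with earlier results of these data known. The rule for named genes gives values on each array for members called with 6 arrays or without transgenic replicate 2, the partners of called members, and the 10 members with the highest mean. Where other members are named, their values are given as ranges or, if singled out, were chosen after they were seen. From the other lists, up to 4 called genes were named, and Adipoq, Rarres2, Ltb4r1, Pf4, Tnf and Il1b were added after their values were seen. So were the other list genes that are named but were not called with 6 arrays. No other normalization was applied. Alternatives were offsets, filters, normalizations, eBayes settings, array weights, a replicate block, each array left out and the mean over probe sets; blocking on Pcx ratio class (below 10 or not) and unfiltered fits with arrays left out were added after seeing the data.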

Additional observations from a re-analysis of the deposited data

How the results depend on the processing

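The count of family genes that rose (2) was 1 with the dimmest 60% left out, where Cxcl2 was not tested, and 8 with array weights. It ranged from 0 to 7 with 1 array left out, and was 7 without transgenic replicate 2 after quantile normalization and 5 without that array and without the filter, the last chosen after seeing the data. The count that fell (0) was 2, 0 to 3, 2 and 1 under array weights, with 1 array left out and under these same 2 combinations. All tested probe sets past the threshold numbered 802, and 3359 with array weights, 141 to 3565 with 1 array left out, and 4954 and 2626 under the combinations. The replicate number as a block gave 341, with the family counts at 2 and 0. Cxcl13 1417851_at was then no longer called (adjusted p = 0.11). Deviations of same-numbered mice from their group means correlated at -0.37, 0.09 and -0.05. With 3 arrays per group these values cannot settle whether equal numbers mark 1 litter. With 1 array left out Ccl9 1448898_at ranged from -1.83 to 1.03. It turned to 1.03, 0.94 and 1.03 without transgenic replicate 2 in the fit as given, after quantile normalization and without the filter. Of 972 values of single probe sets under the alternatives, 915 kept their side of the threshold, 18 lost and 36 gained a call and 3 reversed; of the 915, 43 turned sign without a call. The cause was not tested. Quantile normalization moved the median change over all probe sets tested from -0.09 to 0.03. Without detection calls, the dim probe sets (Ccl3, Cxcl2 and Ackr4 in wild type) are measured close to background.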
